A study of Mus musculus with 6 samples.

Results

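The genes described here are 10 receptors and secreted proteins by which resident macrophages recognise and take up material: Marco, Cd163, Mrc1, Msr1, Lyve1, Folr2, Stab1, Timd4, Cd5l and Vsig4. They were taken by symbol from a gene count table of 34665 rows, and each matched 1 row. Of the 10, 7 had enough counts to enter the fit, which tested 16924 genes. They were Marco, Cd163, Mrc1, Msr1, Lyve1, Folr2 and Stab1. The table comes from bulk RNA sequencing of tumours of B16, a mouse melanoma line, labelled wild type (WT). The ICI tumours (n = 3, replicates 1, 2 and 3) came from mice treated with an immune checkpoint inhibitor alone. The RI tumours (n = 3, replicates 1, 2 and 4) came from mice given the inhibitor and radiation, so the inhibitor is shared by both groups. The sources used here do not give the inhibitor's target, the radiation dose, the age of the mice, the time of harvest or whether a tumour lay in the radiation field.

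Tissue macrophages carry scavenger receptors, which bind modified lipoproteins, bacterial surfaces, dying cells and free haemoglobin and bring them into the cell. Several of these receptors are held by resident or perivascular macrophages more than by freshly recruited monocytes. In tumours, cells with Mrc1, Cd163 or Marco are commonly described as an alternatively activated or scavenging macrophage population. Lyve1 and Stab1 are also made by lymphatic and sinusoidal endothelium.

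The members were chosen by symbol with the levels and log2 fold changes of the RI against ICI contrast known, and Marco was already among the largest rises in it. Their group differences are therefore given as a description, with the standard error (SE) of the log2 fold change and no p-value. Levels are counts scaled to library size (CPM) by TMM. A call means a Benjamini-Hochberg adjusted p under 0.05 over all tested genes in edgeR's quasi-likelihood test. The other gene lists were also chosen with earlier results of these data known. Their calls and p-values are descriptions, not independent tests of the lists. RNA came from whole tumours, so fewer cells of a type and less RNA per cell cannot be told apart. Nothing in the labels says that each library came from a different animal, and spreads are those between these libraries.

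Library totals ran from 22543721 to 45624013 counts. RI replicate 1 stood apart, with counts on 29748 rows where the other libraries had 22763 to 24891, and the results it moves most are given with and without it. Melanoma genes were abundant in every library. The 6 melanoma markers summed to between 12820 and 14571 CPM in ICI and between 9282 and 13861 in RI. The 15 macrophage identity genes were all tested, and they summed to between 214 and 263 CPM in ICI and between 207 and 440 in RI.

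Stretches before the transcription start are printed for 3 members: Marco and Cd163, the called genes, and Mrc1, the member with the highest mean level per length. Each is the 250 bases up to the start, 5′ to 3′ on the gene's own strand, from RefSeq on GRCm38.p6. The windows are chr1:120505025-120505274 for Marco on the minus strand, chr6:124304401-124304650 for Cd163 on the plus strand and chr2:14229164-14229413 for Mrc1 on the plus strand. Capitals mark the PU-box GAGGAA, read on either strand, which is bound by PU.1, the factor that sets macrophage identity.
Marco: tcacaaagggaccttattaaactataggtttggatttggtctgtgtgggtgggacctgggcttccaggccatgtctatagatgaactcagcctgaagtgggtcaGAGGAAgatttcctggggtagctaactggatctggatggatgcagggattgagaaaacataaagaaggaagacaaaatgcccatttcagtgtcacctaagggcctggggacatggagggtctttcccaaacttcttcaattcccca
Cd163: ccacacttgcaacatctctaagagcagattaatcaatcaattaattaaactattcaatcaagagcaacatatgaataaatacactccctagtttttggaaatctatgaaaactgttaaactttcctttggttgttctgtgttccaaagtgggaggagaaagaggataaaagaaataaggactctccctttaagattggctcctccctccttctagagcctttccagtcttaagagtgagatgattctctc
Mrc1: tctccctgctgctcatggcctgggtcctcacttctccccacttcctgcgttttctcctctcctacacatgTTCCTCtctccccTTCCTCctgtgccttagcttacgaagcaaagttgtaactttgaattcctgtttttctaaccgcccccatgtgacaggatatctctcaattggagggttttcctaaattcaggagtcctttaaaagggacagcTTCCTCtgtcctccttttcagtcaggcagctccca

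The Marco window held 1 PU-box, the Mrc1 window 3, all on the other strand as TTCCTC, and the Cd163 window 0. Of 9 windows found for 8 members (Folr2 has more than 1 start, and Msr1 and Lyve1 had no entry), 5 held a PU-box. Over all 32851 windows of the same length the share was 23.3%. These are matches of letters, not measured binding.

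Marco and Cd163 were the members called between the groups, both higher in RI. Marco, a collagen-like class A scavenger receptor for bacteria and particles, was 17.8-fold higher, and Cd163, the receptor for haemoglobin bound to haptoglobin, 3.95-fold. Of the 7 tested members 2 were called higher and 0 lower. Over all tested genes 4.46% were called higher and 4.72% lower, 9.18% in all. Of these calls 48.6% were higher, and 67.8% with upper-quartile scaling. Since the members were chosen with this contrast in view, nothing is read from these counts. The other 5 tested members had overlapping groups. Vsig4, Cd5l and Timd4 had too few counts to be tested.

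**Figure D1:**
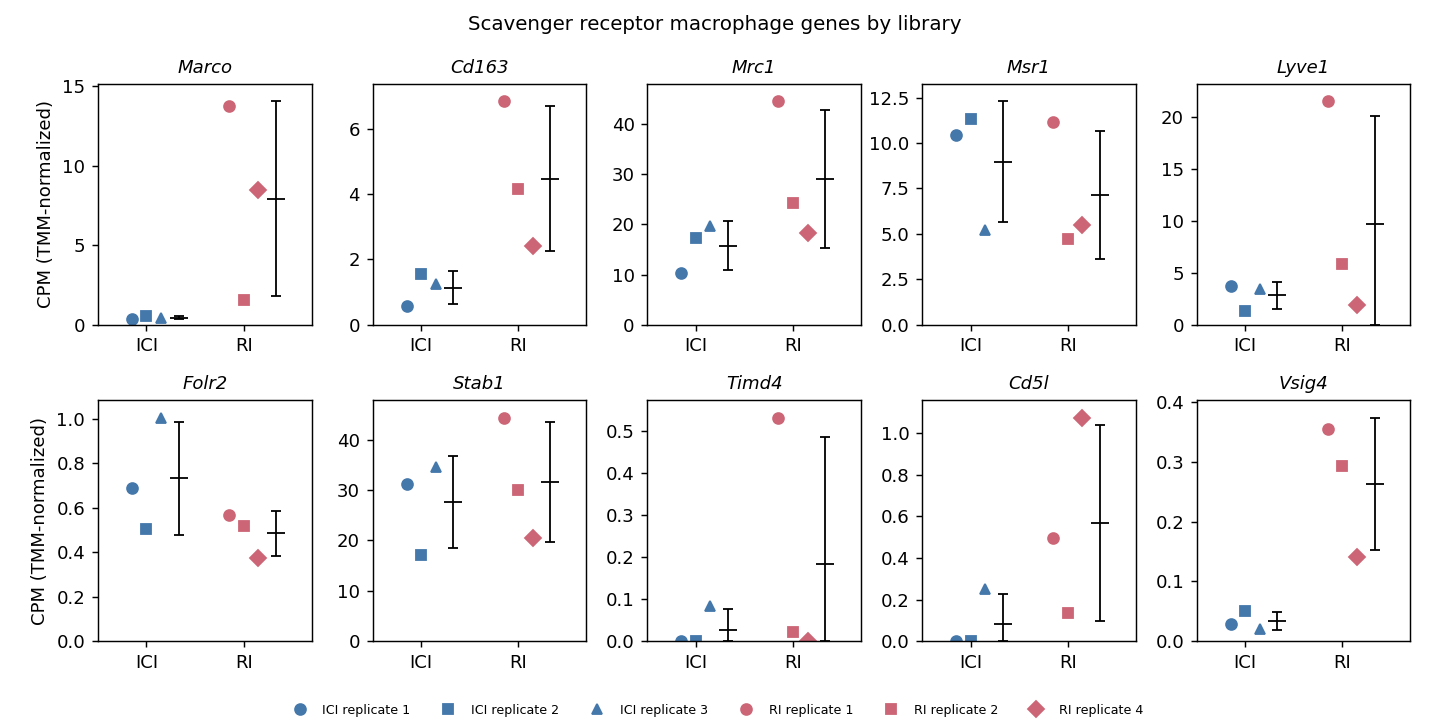
CPM (TMM-normalized) of the 10 members in each library, 1 panel per gene, with each axis starting at 0. Symbols are libraries, and the black bars give the group mean and SD (n = 3), cut at 0. For Marco the 3 RI libraries sit between 1.56 and 13.7 CPM, above all ICI libraries, while for Msr1 and Stab1 the groups overlap.

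Among the class A receptors, Marco (ENSMUSG00000026390, chromosome 1, 120474538 to 120505024 on GRCm38) was at 0.345, 0.554 and 0.418 CPM in ICI replicates 1, 2 and 3. In RI replicates 1, 2 and 4 it was at 13.7, 1.56 and 8.49 CPM. All RI libraries lay above all ICI libraries, but they differed 8.83-fold among themselves, against 1.60-fold within ICI. The means were 0.439 ± 0.106 and 7.93 ± 6.11 CPM (SD, n = 3 each), a log2 fold change of 4.16 (SE 0.77). Behind these levels stood 12 to 22 counts per library in ICI and 69 to 387 in RI. Without RI replicate 1 the log2 fold change was 3.49, and without RI replicate 2, the lowest of its group, it was 4.66.

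Msr1, the other class A receptor, which takes up modified lipoproteins (chromosome 8, 39581685 to 39642673), did not share this pattern. It was at 10.4, 11.3 and 5.19 CPM in ICI replicates 1, 2 and 3 and at 11.2, 4.73 and 5.46 in RI replicates 1, 2 and 4. Both groups held high and low libraries and covered nearly the same range. The log2 fold change was -0.33 (SE 0.41), and it was -0.81 without RI replicate 1.

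Cd163 (ENSMUSG00000008845, chromosome 6, 124304656 to 124330527) was at 0.575, 1.56 and 1.25 CPM in ICI replicates 1, 2 and 3. In RI replicates 1, 2 and 4 it was at 6.85, 4.17 and 2.43 CPM. The groups did not overlap, and the spread within each was alike, 2.71-fold in ICI and 2.82-fold in RI. The means were 1.13 ± 0.504 and 4.48 ± 2.23 CPM (SD, n = 3 each), with a log2 fold change of 1.98 (SE 0.50). Without RI replicate 1 it was 1.55, and Cd163 was not called. It was not called either after a correction for transcript length and GC content, where the log2 fold change was 2.07. Of all tested genes 17.8% were higher in RI with no overlap between the groups, and 19.4% were lower with none. Of the tested members, Marco and Cd163 were higher with none and 0 were lower with none.

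Cd5l, a secreted protein with the same kind of cysteine-rich domain that resident macrophages make, was near the limit of detection. It had 0, 0 and 12 counts in ICI and 14, 6 and 23 in RI, in the same library order. A count of 0 there allows up to 0.0863 CPM in ICI replicate 1 and 0.0755 in ICI replicate 2 (3 counts per library). Its highest library was RI replicate 4, at 1.07 CPM. RI replicate 2 lay below ICI replicate 3, so the groups overlapped. Summed over the libraries of a group, Cd5l was at 0.0981 CPM in ICI (exact 95% Poisson interval 0.0507 to 0.171) and 0.457 in RI (0.331 to 0.616). These intervals cover counting error only, not the spread between tumours.

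Mrc1, the mannose receptor CD206 (chromosome 2, 14229392 to 14332057), was at 10.3, 17.4 and 19.7 CPM in ICI replicates 1, 2 and 3 and at 44.5, 24.3 and 18.2 in RI replicates 1, 2 and 4. RI replicate 4 lay below ICI replicate 3, so the groups overlapped, and Mrc1 was not called. The means were 15.8 ± 4.89 and 29.0 ± 13.8 CPM (SD, n = 3 each). The log2 fold change of 0.88 (SE 0.37) was 0.43 without RI replicate 1.

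Lyve1, a hyaluronan receptor (chromosome 7, 110850607 to 110863239), was at 3.71, 1.31 and 3.49 CPM in ICI replicates 1, 2 and 3 and at 21.5, 5.86 and 1.87 in RI replicates 1, 2 and 4. One library, RI replicate 1, held most of the difference, and the RI libraries differed 11.5-fold. The log2 fold change of 1.78 (SE 0.89) was 0.46 without RI replicate 1. Stab1, a receptor for oxidised lipids and phosphatidylserine (chromosome 14, 31139013 to 31168641), was at 31.3, 17.2 and 34.5 CPM in ICI and at 44.3, 30.04 and 20.5 in RI, in the same order. Its groups overlapped over most of their range. Its log2 fold change was 0.19 (SE 0.34), and it was -0.13 without RI replicate 1 and -0.07 without ICI replicate 2.

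RI replicate 1, ICI replicate 3 and ICI replicate 1 were the highest libraries, in that order, both for Stab1 and for the sum of the blood endothelium markers. The 6 blood endothelium markers summed to 171, 80.7 and 177 CPM in ICI replicates 1, 2 and 3 and to 210, 95.3 and 72.3 in RI replicates 1, 2 and 4. The 6 lymphatic markers summed to 27.9, 16.9 and 17.9 and to 40.3, 17.8 and 16.3 CPM, with Ccl21a at 0 counts in ICI replicate 3 and RI replicate 4. None of these 12 markers was called (in edgeR 0 were at an unadjusted p under 0.05, and DESeq2 and limma-voom called 0). Their part in the levels of Lyve1 and Stab1 was not tested.

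Folr2, the folate receptor of perivascular and resident macrophages (chromosome 7, 101839988 to 101857194), leaned the other way. It was at 0.690, 0.503 and 1.00 CPM in ICI replicates 1, 2 and 3 and at 0.567, 0.518 and 0.373 in RI replicates 1, 2 and 4. The log2 fold change was -0.58 (SE 0.42), and it was -0.29 without ICI replicate 3, the highest library. The antisense gene Gm10602 covers 63.1% of the Folr2 exons. How strand was treated in counting is not given in the sources used here, so reads of the pair may not be told apart. For Stab1 the overlap with a gene on the other strand, Nt5dc2, was 1.09% of its exons, and no other member had one.

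Vsig4, the complement receptor CRIg of resident macrophages, had 1, 2 and 1 counts in ICI and 10, 13 and 3 in RI, in the same library order. The groups did not overlap, at 0.0209 to 0.0503 CPM against 0.140 to 0.355. This rests on 3 counts in RI replicate 4 against 2 in ICI replicate 2. A count of 0 in RI replicate 4 would also allow up to 0.140 CPM (3 counts). Summed over each group Vsig4 was at 0.0327 CPM in ICI (exact 95% Poisson interval 0.00891 to 0.0837) and 0.277 in RI (0.181 to 0.405). These intervals too cover counting error only. Timd4, a phosphatidylserine receptor by which resident macrophages bind dying cells, had 0, 0 and 4 counts in ICI and 15, 1 and 0 in RI. Most of its counts were in RI replicate 1, at 0.532 CPM.

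**Figure D2:**
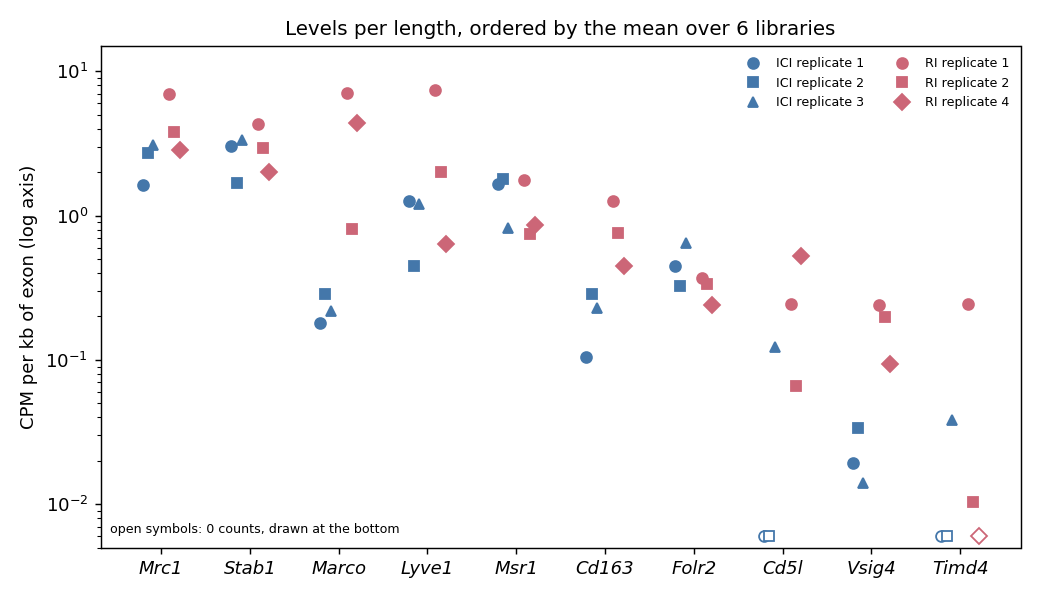
CPM per kb of exon for the 10 members on a log axis, ordered by the mean over the 6 libraries, with 1 symbol per library. Mrc1 is among the 3 highest in every library, and Marco spans from 0.179 to 7.13.

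Levels between genes were compared per kb of exon. In ICI the order of mean CPM per kb was Stab1 (2.69 ± 0.894, SD, n = 3), Mrc1 (2.48 ± 0.767), Msr1 (1.41 ± 0.522) and Lyve1 (0.972 ± 0.455). After these came Folr2 (0.474 ± 0.164), Marco (0.228 ± 0.0550) and Cd163 (0.207 ± 0.0923), and then Cd5l, Vsig4 and Timd4. Of these first 7, each overlapped its neighbour in the range over libraries, except Folr2 and Marco.

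In RI the order was Mrc1 (4.55 ± 2.17 CPM per kb), Marco (4.12 ± 3.17), Lyve1 (3.34 ± 3.56) and Stab1 (3.07 ± 1.16), and the range of each over libraries overlapped that of its neighbour. Marco stood sixth in ICI and second in RI. Below them were Msr1 (1.12 ± 0.556), Cd163 (0.820 ± 0.408) and Folr2 (0.315 ± 0.0653). The ranges of Stab1 and Msr1, and of Cd163 and Folr2, did not overlap, and those of Msr1 and Cd163 did.

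The members did not vary as 1 block across the 6 libraries. Of the 10, 7 were highest in RI replicate 1 (Marco, Cd163, Mrc1, Lyve1, Stab1, Timd4 and Vsig4), and Cd5l was highest in RI replicate 4. Msr1 was highest in ICI replicate 2 and Folr2 in ICI replicate 3. The share of all genes that were highest in RI replicate 1 was not computed. Timd4 and Vsig4 had only 15 and 10 counts in that library. Over the 6 libraries, which share their group structure and depth, the log2 CPM of Cd163 and Mrc1 had a Pearson r of 0.93 and that of Lyve1 and Stab1 0.90. Marco had r = 0.81 with Cd163 and 0.72 with Mrc1, but -0.02 with Msr1 and -0.61 with Folr2. These are descriptions over 6 libraries of 2 groups, with no test.

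Of 11070 other tested genes with a mean level of 5 CPM or more, those nearest in pattern to Marco were Mrpl43 (r = 0.997 over 6 libraries), Chchd2 (0.989) and 2010320M18Rik (0.983). Their levels moved far less: Mrpl43 ranged from 18.3 to 28.7 CPM and Chchd2 from 363 to 485. Nearest to Cd163 were Utp3 (0.994), Hint1 (0.990) and Pim3 (0.989), and nearest to Mrc1 were Mrpl11 (0.984), Psmc2 (0.978) and Chd2 (0.975). Lyve1 was nearest to Hsd17b11 (0.997), Gm10257 (0.997) and Cyyr1 (0.995), and Stab1 to Enpp2 (0.991), Tmem204 (0.990) and Robo4 (0.987). The nearest genes to Msr1 were Cadm1 (0.989), Rpl5 (0.985) and Gzmb (0.982), and to Folr2 Mcm10 (0.991), Srsf3 (0.990) and Polb (0.988). Chosen out of so many genes over 6 points, such values of r are reached easily.

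No gene that marks macrophages in general was called over all 6 libraries, and 4 were called lower once RI replicate 1 was left out. Of 15 macrophage identity genes 0 were called in edgeR, where 1 higher and 1 lower had an unadjusted p under 0.05. DESeq2 called 1 higher and 1 lower, and limma-voom 0. The median log2 fold change of the list was 0.23 against 0.01 over all tested genes. By mean level the list was led by Lyz2, the lysozyme gene, and the complement genes C1qa and C1qb, at log2 fold changes of 0.12, 0.23 and 0.29 (adjusted p = 0.807, 0.647 and 0.694, edgeR). C1qb was at 41.2, 37.1 and 35.7 CPM in ICI and at 84.9, 27.3 and 27.3 in RI, so that 1 library set its mean. Without RI replicate 1 its log2 fold change was -0.48 and it was called lower (adjusted p = 0.0399, edgeR), and those of C1qa and Lyz2 were -0.26 and -0.06, not called. The 4 called lower in that fit were C1qb, C1qc, Fcgr1 and Csf1r, with 0 of the 15 called higher. Over all genes tested in that fit 8.80% were called lower and 8.91% higher.

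Markers of the lineage as a whole, chosen after their values were seen, lay on both sides of 0. Adgre1, which encodes F4/80, was at 6.76 ± 3.77 CPM in ICI and 3.23 ± 2.92 in RI (SD, n = 3, adjusted p = 0.345, edgeR). Csf1r, the receptor on which macrophages depend, was at 11.1 ± 1.29 and 7.14 ± 2.84 CPM (adjusted p = 0.171, edgeR), with 15.1% of its exons overlapped by Hmgxb3 on the other strand. Fcgr1, the high-affinity Fc receptor, was at 5.72 ± 1.46 and 2.69 ± 1.11 CPM (adjusted p = 0.0842, edgeR). In the fit that left out RI replicate 1 the log2 fold changes were -2.12 for Adgre1 (adjusted p = 0.0533), -1.002 for Csf1r (0.0233) and -1.47 for Fcgr1 (0.0220), the last 2 called lower. Cd68, a lysosomal protein also counted as a scavenger receptor, was at 20.8 ± 2.28 and 34.0 ± 8.43 CPM (adjusted p = 0.0583, edgeR).

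**Figure D3:**
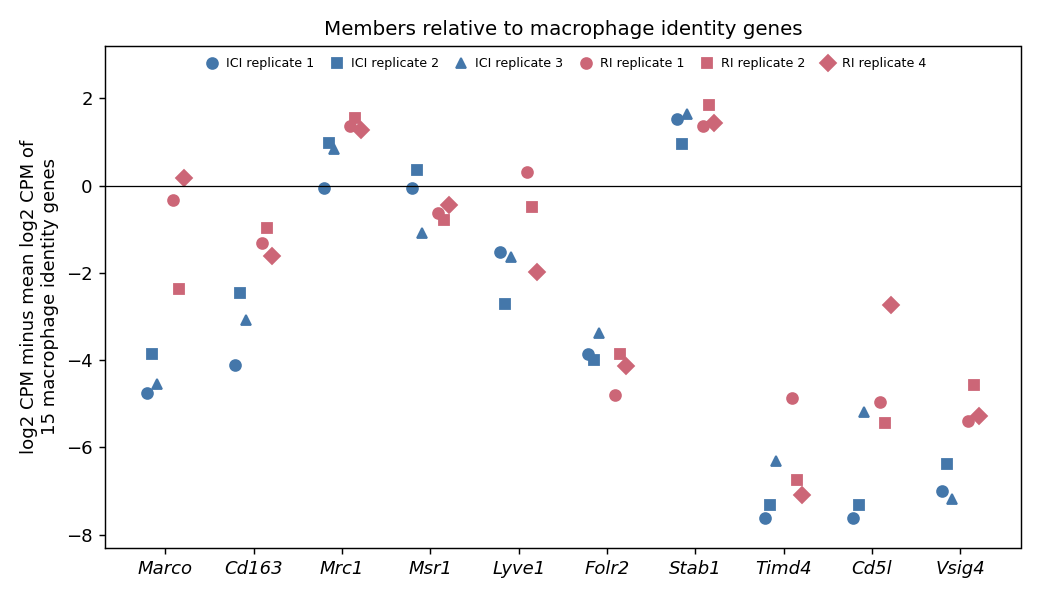
Log2 CPM of each member minus the mean log2 CPM of 15 macrophage identity genes in the same library, with 1 symbol per library and 0 marking equal level. Marco, Cd163, Mrc1 and Vsig4 lie higher in every RI library than in every ICI library on this scale, and Msr1, Folr2 and Stab1 do not. Vsig4 had at most 13 counts in a library. The share of all genes that do so was not computed.

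The members were also set against the mean log2 CPM of the macrophage identity genes in the same library. That mean was 3.44, 3.15 and 3.47 in ICI replicates 1, 2 and 3 and 4.11, 3.06 and 2.92 in RI replicates 1, 2 and 4, so RI replicate 1 was high and the other RI libraries were low. On this scale Mrc1 lay at -0.06, 0.97 and 0.83 in ICI and at 1.37, 1.54 and 1.27 in RI, and its groups no longer overlapped. Cd163 lay at -4.10, -2.46 and -3.08 in ICI and at -1.33, -0.98 and -1.61 in RI. RI replicate 1 was not the highest library for either of them. Marco lay at -4.76, -3.87 and -4.55 in ICI and at -0.33, -2.37 and 0.18 in RI. The share of all genes without overlap on this scale was not computed. Since the members were chosen with this contrast in view, nothing is read from those that did not overlap.

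Lyve1 still overlapped, from -2.704 to -1.53 in ICI and -1.98 to 0.32 in RI. Stab1 lay at 0.96 to 1.64 and at 1.36 to 1.85. Msr1 lay at -1.08 to 0.35 and at -0.80 to -0.46. The difference of the group means on this scale was 3.55 for Marco, 1.91 for Cd163, 0.81 for Mrc1 and -0.37 for Msr1.

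Genes of alternatively activated and perivascular macrophages, which often accompany Mrc1 and Cd163, held 2 called genes, both higher in RI, among 12 tested, and 0 lower. The shares over all tested genes were 4.46% higher and 4.72% lower. The list's median log2 fold change was 0.72 against 0.01 over all tested genes. Retnla, a secreted product of interleukin 4-stimulated macrophages and of fat, had 0, 0 and 3 counts in ICI and 21, 47 and 9 in RI (adjusted p = 0.0299, edgeR). Pf4, a chemokine of platelets and perivascular macrophages, rose 1.87-fold, from 5.36 ± 0.605 to 10.02 ± 2.24 CPM (adjusted p = 0.0494, edgeR). It was not called in edgeR with the length and GC correction (adjusted p = 0.140), robust estimation off (0.0527) or the replicate block (0.155). Nor was it called in limma-voom (adjusted p = 0.0591).

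Clec10a and F13a1 of this list, chosen after their values were seen, were highest in RI replicate 1 like most members. Clec10a, a galactose-binding lectin, was at 0.288, 0.956 and 1.55 CPM in ICI and at 34.2, 4.10 and 6.44 in RI (log2 fold change 3.98, adjusted p = 0.0655, edgeR). Without RI replicate 1 its log2 fold change was 2.48 and it was called (adjusted p = 0.0370, edgeR). F13a1, a transglutaminase of resident macrophages, was at 6.61 ± 2.10 and 17.6 ± 13.9 CPM (adjusted p = 0.144, edgeR), and its log2 fold change of 1.41 was 0.54 without RI replicate 1.

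**Figure D4:**
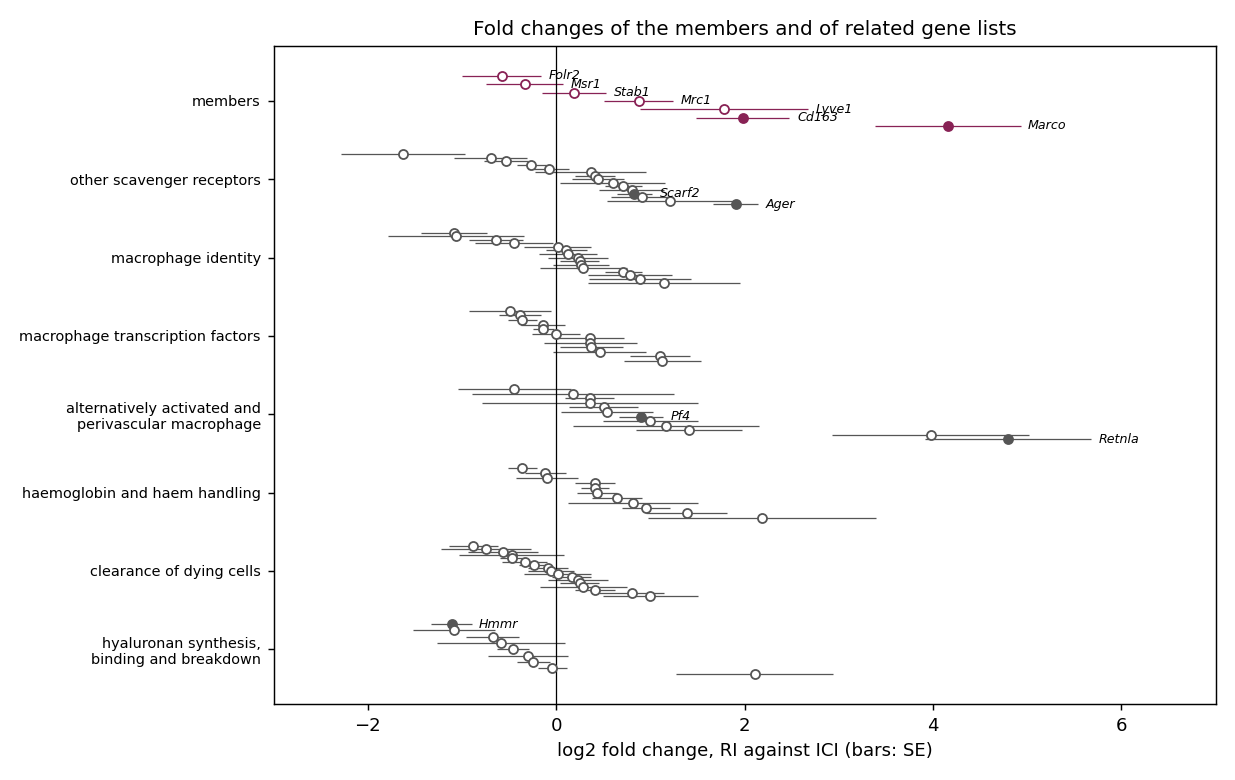
Log2 fold change of RI against ICI with its SE for the 7 tested members and the tested genes of 7 related lists, 1 point per gene. Filled points were called (adjusted p under 0.05). Marco, at 4.16, lies beyond every gene drawn except Retnla, and no macrophage identity gene is filled.

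Of 15 other tested scavenger receptors, 2 were called higher and 0 lower, with a median log2 fold change of 0.44. The shares over all tested genes were 4.46% and 4.72%. In edgeR 5 higher and 1 lower had an unadjusted p under 0.05. DESeq2 called 4 higher and 0 lower, and limma-voom 2 and 0. Clec7a was 3.09-fold lower in RI with no overlap between the groups, but was not called (adjusted p = 0.138, edgeR). Ager, the receptor for glycated proteins and alarmins, rose 3.74-fold, from 5.44 ± 0.996 to 20.4 ± 5.08 CPM (SD, n = 3, adjusted p = 0.0218, edgeR). Scarf2, a class F receptor made by many cell types, rose 1.78-fold, from 162 ± 10.1 to 288 ± 66.8 CPM (adjusted p = 0.0394, edgeR, and 0.114 with the length and GC correction). Cd36, the class B receptor for oxidised lipids and fatty acids, was at 16.8 ± 3.11 and 29.3 ± 14.7 CPM (adjusted p = 0.157, edgeR), and its log2 fold change of 0.80 was 0.32 without RI replicate 1. Ssc5d, a soluble relative of Cd163 and Cd5l, was at 6.33 ± 0.720 and 12.0 ± 5.45 CPM (adjusted p = 0.105, edgeR). When RI replicate 1 was left out it was called higher (adjusted p = 0.0209, edgeR), and the list then held 3 genes called higher and 2 lower.

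Genes that handle haemoglobin and haem, the cargo of Cd163, were not called in the reported edgeR fit. Of 11 tested, 0 passed in edgeR, where 4 higher and 1 lower had an unadjusted p under 0.05. DESeq2 called 1 higher and limma-voom 0, and edgeR called 1 lower without RI replicate 1. The median log2 fold change was 0.43. With no overlap between the groups 4 of the 11 were higher in RI and 0 lower, against 17.8% and 19.4% of all tested genes. Blvrb, biliverdin reductase B, was at 16.4 ± 5.41 and 31.7 ± 6.43 CPM (adjusted p = 0.0525, edgeR). Hp, haptoglobin itself and also a product of fat cells, was at 2.65, 0.679 and 20.6 CPM in ICI and at 43.9, 24.9 and 40.6 in RI (adjusted p = 0.278, edgeR). Hmox1, which opens the haem ring, ran from 68.4 to 351 CPM in RI and from 70.7 to 203 in ICI.

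Factors and signals upstream of the receptors mostly did not pass. Of 12 tested macrophage transcription factors 0 were called in edgeR, where 2 higher and 1 lower had an unadjusted p under 0.05. DESeq2 called 2 higher and limma-voom 0, and edgeR called 2 lower without RI replicate 1. Of 10 tested polarizing cytokines and receptors 1 was called higher and 0 lower, against 4.46% and 4.72% of all tested genes. DESeq2 called 1 higher and 1 lower, and limma-voom 0. The gene called in edgeR was Csf2ra, a chain of the receptor for the growth factor GM-CSF. It rose 2.30-fold, from 8.56 ± 2.27 to 19.7 ± 6.69 CPM (adjusted p = 0.0487, edgeR). Its call was lost in edgeR with the length and GC correction (adjusted p = 0.113), robust estimation off (0.0538) and the replicate block (0.0643). It was also lost in limma-voom (adjusted p = 0.0614). Csf1, the main macrophage growth factor, was at 33.4 ± 4.13 and 21.8 ± 4.10 CPM (adjusted p = 0.0624, edgeR). Il10, Il13, Csf2 and Ifng had too few counts to be tested.

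Genes for the clearance of dying cells and for hyaluronan gave the setting of Timd4, Stab1 and Lyve1. Of 17 tested clearance genes 0 were called in edgeR, where 1 higher and 2 lower had an unadjusted p under 0.05. DESeq2 called 2 lower and limma-voom 0, and edgeR called 3 lower without RI replicate 1. The median log2 fold change was -0.06. Of 9 tested hyaluronan genes 1 was called lower and 0 higher, against 4.72% and 4.46% of all tested genes, and their median was -0.46. The called gene was Hmmr, a hyaluronan-binding protein of dividing cells. It was 2.16-fold lower in RI, at 11.9 ± 0.803 against 25.7 ± 7.18 CPM (adjusted p = 0.0326, edgeR).

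Tissues that can bring their own macrophages were read from marker lists. Alb of liver and Sftpc and Siglecf of lung had 0 counts in every library but RI replicate 1, where each had 2. Apoa1, a lipoprotein of liver and gut, had 0 counts in all ICI libraries and 17, 10 and 1 in RI replicates 1, 2 and 4. Of the liver list 1 gene was tested and called higher, Ttr, at 0.607 ± 0.217 against 0.158 ± 0.0283 CPM (adjusted p = 0.0435, edgeR). This call was lost with the length and GC correction (adjusted p = 0.0625) and without the low-count filter (0.0549). The Kupffer cell markers Clec4f and Clec4g matched no symbol among the 34665 rows, so they have no level here. Of the lung list Car4, a carbonic anhydrase that capillaries also make, rose to 2.62 ± 1.48 from 0.336 ± 0.0716 CPM (adjusted p = 0.0297, edgeR, and 0.0509, not called, in limma-voom). Of the peritoneal list Prg4, a lubricating proteoglycan of joint and connective tissue, rose 10.7-fold to 16.5 ± 6.86 CPM (adjusted p = 0.0189, edgeR), while Gata6, the factor that defines peritoneal macrophages, had at most 7 counts in a library. Of the lymph node and spleen list the chemokine Cxcl13 was at 0 counts in all ICI libraries and at 52 to 188 in RI (adjusted p = 0.0267, edgeR), while Ms4a1, which marks B cells, was too low to be tested. Siglec1, the gene of that list with the highest mean level, leaned the other way. It was at 7.23 ± 1.90 CPM in ICI and 4.34 ± 2.32 in RI (adjusted p = 0.257, edgeR).

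Fat and muscle genes varied widely between libraries. The 7 adipocyte genes summed to 0.805, 0.679 and 26.0 CPM in ICI replicates 1, 2 and 3 and to 78.6, 59.4 and 54.5 in RI replicates 1, 2 and 4, with Plin4 the 1 called gene of 6 tested (adjusted p = 0.0456, edgeR). Its call was lost with the length and GC correction (0.0601), without the low-count filter (0.134) and without RI replicate 1 (0.0763). Of the fits that left out 1 library, it held only without ICI replicate 3 (adjusted p = 0.0168, edgeR). It also held with the replicate block (adjusted p = 0.00019, edgeR), in DESeq2 (0.00060) and in limma-voom (0.0321). Over the adipocyte list DESeq2 called 1 gene higher and limma-voom 2. Every RI library was above every ICI library in the adipocyte sum. Of the 6 tested adipocyte genes 4 were higher in RI with no overlap, against 17.8% of all tested genes. Adipoq, Plin1 and Lep were instead highest in ICI replicate 3, at 2.20, 1.32 and 0.899 CPM. In RI they reached at most 1.87, 1.12 and 0.0467 CPM. The 6 muscle genes summed to 208, 164 and 2.49 CPM in ICI replicates 1, 2 and 3 and to 2154, 934 and 16.8 in RI replicates 1, 2 and 4, and 0 of them were called. Within RI the muscle sum ordered the libraries as Cd163, Mrc1 and Lyve1 did, with replicate 1 highest and replicate 4 lowest, while Marco was lowest in replicate 2. Within ICI it did not. There the muscle sum was highest in replicate 1, where Cd163 and Mrc1 were lowest, and Lyve1 was lowest in replicate 2. Monocyte and neutrophil genes summed to 10.5 to 49.6 CPM in ICI and 7.05 to 31.4 in RI, with 0 of 6 called. Dendritic cell genes summed to 9.68 to 9.76 and 5.69 to 7.66 CPM, with 0 of 3 tested genes called. In edgeR the muscle list had 0 genes at an unadjusted p under 0.05, the monocyte list 2 higher and 1 lower, and the dendritic cell list 1 lower. DESeq2 called 1 muscle gene higher, 2 monocyte and neutrophil genes higher and 1 lower, and 1 dendritic cell gene lower, and limma-voom called 0 in these lists. The part of other tissues in the levels of the members was not tested.

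**Figure D5:**
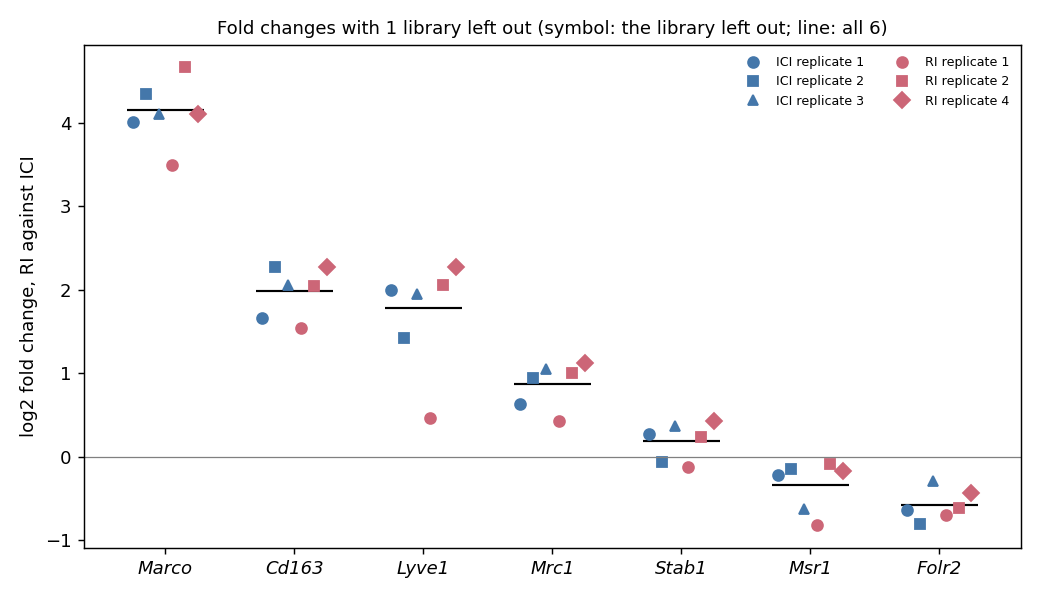
Log2 fold change of RI against ICI for the 7 tested members in the fits that leave out 1 library, with the symbol naming the library left out and the line giving the value from all 6. Marco stays between 3.49 and 4.66 and Cd163 between 1.55 and 2.28, while Stab1 crosses 0.

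Marco and Cd163 kept their direction when a library was left out, but mostly not their calls. Over the 6 fits that leave out a library, Marco ran from 3.49 to 4.66 and Cd163 from 1.55 to 2.28 on the log2 scale, Lyve1 from 0.46 to 2.27 and Mrc1 from 0.43 to 1.12. Marco was called without RI replicate 1 and in none of the other 5 such fits, and Cd163 in none of the 6. In the whole table the number of genes called higher also changed when a library was left out. It was 0 without ICI replicate 1 or RI replicate 2, 2 without ICI replicate 3 and 81 without RI replicate 4. Without RI replicate 1 it was 1564. At an unadjusted p under 0.05 (edgeR) 1841 genes were higher without ICI replicate 1 and 2130 without RI replicate 2, against 2664 with all 6. The part of the smaller number of libraries in these losses was not tested. Without ICI replicate 1 or RI replicate 2 no gene of the related lists was called either.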

How the data were processed

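RNA was sequenced from 6 tumour libraries, and the authors deposited raw counts per gene. The submitters' processing notes name HISAT2 as aligner and GRCm38 and mm10 as builds. The counting tool, strand setting and annotation were not named there. Genes were kept with filterByExpr, scaled by TMM and compared with the robust quasi-likelihood test of edgeR 4.0.16 (R 4.3.3), adjusted by Benjamini-Hochberg over all 16924 genes tested. The procedure was tested on simulated data. SE came from the coefficient and the F statistic. Values relative to macrophage genes and correlations used log2 CPM with a prior count of 2. Positions, exon lengths and overlaps came from GENCODE M21 on GRCm38. The members and the 19 other gene lists were chosen with earlier results of these data known. Named were all members, the called genes of each list (up to 4) and up to 3 others with the highest level. Not every gene the rule took is reported. Other settings tried were other scalings, filters and tools (DESeq2 1.42.0, limma-voom from limma 3.58.1), a replicate block, a correction for length and GC content, and leaving out each library. No library pair agreed within sampling noise (chi-square per degree of freedom at least 36.3).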

Additional observations from a re-analysis of the deposited data

How the results depend on the processing

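The count of members called higher was 2 (Marco and Cd163) in the reported fit, with the other scalings, filters and DESeq2, without mitochondrially encoded genes, and at an adjusted p under 0.1. It was 1 with robust estimation off and with the length and GC correction (Marco in both), and 0 with limma-voom. It ranged from 0 to 1 over the fits that left out 1 library. The count of members called lower was 0 in every setting, with 0 at an unadjusted p under 0.05 in edgeR. With the replicate number as a block, 1 member was called higher (Lyve1), Marco (log2 fold change 3.37) and Cd163 (2.42) were not, Hp was called higher (4.55, adjusted p = 0.00065, edgeR), and 400 genes were higher and 245 lower over the table. Only the numbers 1 and 2 are shared by the groups. The blocked contrast therefore rests on replicates 1 and 2 of each group, and ICI replicate 3 and RI replicate 4 added nothing to it. The deviations of same-numbered libraries had correlations of 0.353 and 0.0909. Those of the other pairs of ICI and RI libraries ran from -0.32 to 0.27. For ICI replicates 1 and 2 the same-numbered library had the highest value among the RI libraries. The labels do not say what a shared number stands for, and its meaning was not tested. Of all tested genes 754 were higher and 799 lower. Upper-quartile scaling gave 1046 and 497, no low-count filter 1121 and 1507, the length and GC correction 260 and 351, DESeq2 1746 and 1703, and an adjusted p under 0.1 gave 1802 and 1833. Leaving out 1 library gave 0 to 1564 higher and 0 to 1545 lower. No member that was called changed sign. Sign changes were seen for Hmox1 (log2 fold change -0.0036 with the replicate block) and for C1qa (-0.22), C1qb (-0.13) and Lyz2 (-0.037) with the length and GC correction. Leaving out 1 library gave -0.26 to 0.48 for C1qa, -0.48 to 0.58 for C1qb and -0.16 to 0.37 for Lyz2. The cause was not tested. Depth limits Cd5l, Timd4 and Vsig4, which had at most 23 counts in a library.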
